A study of Mus musculus with 19 samples.

Results

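The comparison of a high-fat diet (HFD) with a normal diet (ND) in female APP23 mice rested on 11 of the 19 RNA-seq libraries of the series, those whose columns in the deposited table carry the prefix F. They came from 5 HFD females and 6 ND females, and the other 8 libraries came from males. APP23 mice are hemizygous for a transgene that expresses human APP751 with the Swedish familial Alzheimer's disease mutation, on a C57Bl6 background, and every mouse of both diets carried it, so the comparison is of diets within an amyloid model and holds no mouse without the transgene. HFD females received a Western diet that gave 40% of calories as milk fat and corn oil for 3 months, from a mean age of 11.7 months, and ND females of the same age stayed on standard chow. RNA was taken from the cortex after perfusion with saline, although the samples carry brain as their tissue label. Each library is 1 mouse. Values are CPM (counts scaled to a common library total, with TMM factors), the 5 HFD values always stand in the order F1063, F1076, F1094, F1100 and F1252, and a gene is called when its unadjusted p in edgeR's quasi-likelihood test is under 0.05. The p printed with a gene is that of the same test after Benjamini-Hochberg adjustment over all genes tested.

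Amyloid plaques are surrounded by microglia, the resident phagocytes of the brain, which sense lipids and debris through TREM2 and its adaptor TYROBP and shift to a program of lysosomal, complement and antigen-presenting genes. Interferons, secreted in response to nucleic acids and injury, switch on a separate set of antiviral genes through IRF and other transcription factors. In neurons, electrical activity induces immediate early genes such as the Fos, Jun and Egr factors within minutes, while factors of the Dlx, Sp8 and Zic families mark inhibitory and midline lineages that are unevenly spread over the forebrain.

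Library totals ran from 11727151 to 17178044 reads, and all 25 pairs of libraries within a diet differed beyond sampling error of the counts (chi-square 4.99 to 18.1 per degree of freedom). The 23 glutamatergic cortical neuron markers, Slc17a7 among them, were present in every library at a summed 6201 to 7784 CPM in HFD females and 5842 to 7742 CPM in ND females. No member of that list was called with all mice, and at most 1 in each direction was when 1 female was left out. Markers of other parts of the forebrain differed between mice. HFD female F1063 stood apart on the first principal component (-33.3, against -1.996 to 3.46 in the other HFD females and -17.5 to 19.5 in ND females). Its mean over 21 striatal projection neuron markers, on the log2(CPM + 0.5) scale used for all list means, was 4.71, against 6.34 to 6.85 in the other HFD females and 5.43 to 6.95 in ND females. Choroid plexus markers were highest in HFD female F1063 (3.12) and ND female F1102 (3.70), and olfactory bulb markers were spread widely in ND females only. The part of these marker differences in the results was not tested, and values without single mice are given where they change a call or move a count.

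In females, 579 genes were called higher on HFD (3.92% of 14756 tested) and 664 were called lower (4.5%). If no gene differed, the threshold of 0.05 would call about 738 of them, both directions together. No gene passed a Benjamini-Hochberg adjusted p of 0.05 over all genes with this test (smallest 0.130) or with limma-voom, against 48 with DESeq2 and 41 with edgeR's likelihood ratio test. Differences were small: the median log2 fold change was 0.31 over the genes called higher and -0.24 over those called lower, and 29 and 35 of them exceeded 1 log2 unit. Of the calls, 222 of 579 higher and 286 of 664 lower were made again each time 1 of the 11 females was left out. Without HFD female F1252 the number called higher was 381. P-values set the difference between the diets against the spread between these mice, and every call below is an unadjusted one that did not pass the adjustment. The plot of calls by gene list shows where they gathered: immune lists lay to the higher side, lists of bulb, midline and activity-dependent neuronal genes to the lower side, and lists of glutamatergic cortical neurons, respiratory complex I and amyloid processing held no call.

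**Figure D1:**
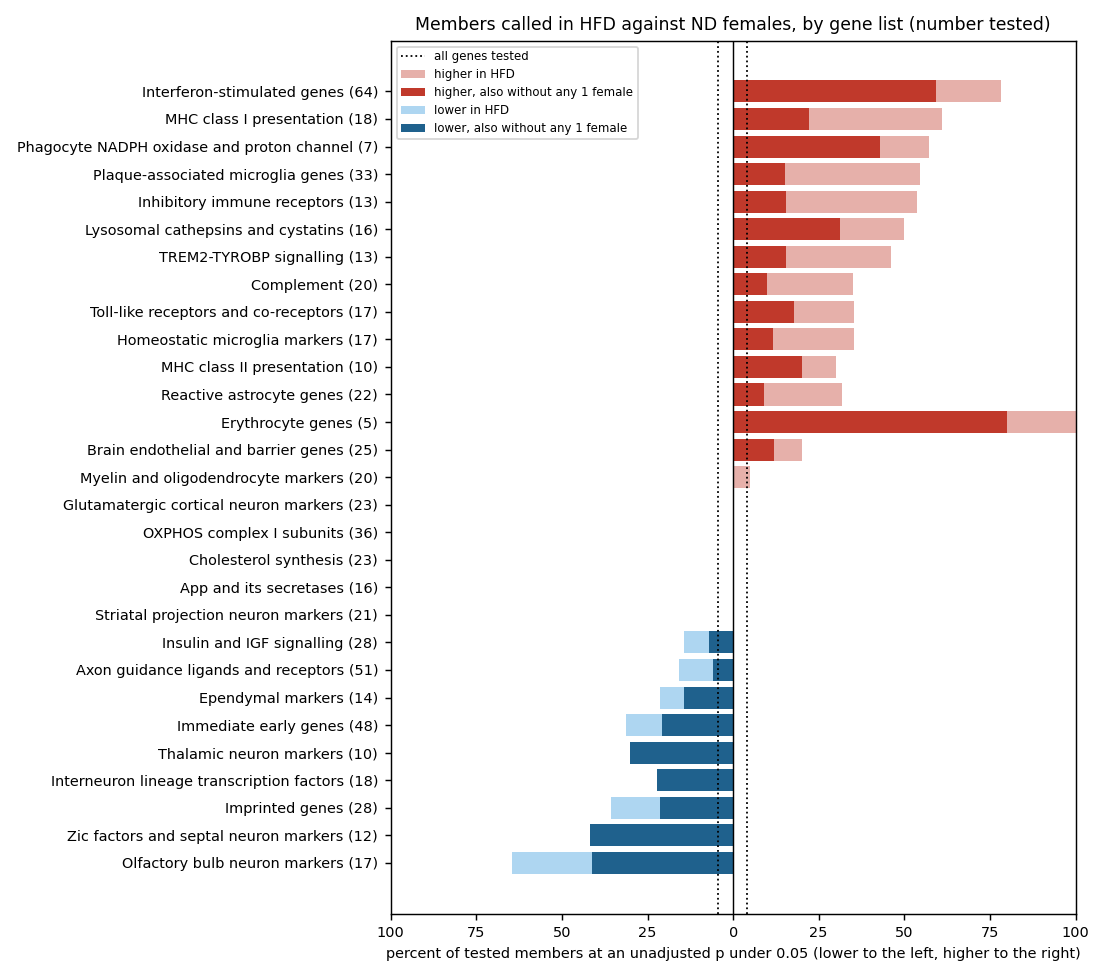
Share of the tested members of each gene list called in HFD against ND females (5 and 6 mice, unadjusted p under 0.05), higher to the right and lower to the left of 0, with the number tested in parentheses. Dark bars are members called in all 11 fits that each left out 1 female, and dotted lines give the shares over all genes tested (3.92% and 4.5%); 50 of 64 interferon-stimulated genes lie on the higher side and 11 of 17 olfactory bulb markers on the lower side.

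In 49 genes every HFD female lay above every ND female (0.332% of those tested), and in 64 every HFD female lay below (0.434%). The smallest p among the higher genes belonged to Slco1a4, an organic anion transporter of the blood-brain barrier. It was measured at 48.9, 54.9, 54.6, 50.4 and 50.5 CPM in HFD females, against 37.2 to 45.01 CPM (median 40.5) in ND females (log2 fold change 0.34, SE 0.055, adjusted p = 0.1304). Hvcn1, the voltage-gated proton channel that balances charge when phagocytes make superoxide, was at 15.2, 13.3, 12.8, 14.6 and 16.5 CPM in HFD females, against 10.6 to 11.9 CPM (median 10.9) in ND females (log2 fold change 0.38, SE 0.076, adjusted p = 0.346). In both genes the gap between the diets was narrow beside the levels. Fam46c, a poly(A) polymerase that stabilises secretory transcripts in B-lineage cells, was at 4.97, 3.86, 2.62, 3.29 and 5.04 CPM in HFD females, against 1.89 to 2.604 CPM (median 2.16) in ND females (log2 fold change 0.87, SE 0.18, adjusted p = 0.346). Its lowest HFD female, F1094, was just above the highest ND female.

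Receptors of the vessel wall were among the genes without overlap. Pdgfrb, the receptor that recruits pericytes, was at 30.5, 30.1, 28.5, 28.2 and 28.5 CPM in HFD females, against 24.5 to 26.3 CPM (median 25.5) in ND females (log2 fold change 0.19, SE 0.045, adjusted p = 0.382). Tek, the angiopoietin receptor of endothelium, was at 16.8, 18.1, 17.4, 18.3 and 16.97 CPM in HFD females, against 13.4 to 16.1 CPM (median 14.9) in ND females (log2 fold change 0.25, SE 0.064, adjusted p = 0.384). Both differences were small beside the level, and no mouse of either diet crossed the gap. Of 13 tested pericyte and smooth muscle markers only 1 was called with all mice, and their median log2 fold change was 0.11. Without HFD female F1063 or ND female F1102, 3 of these markers were called higher. Ifngr1, a chain of the interferon gamma receptor, was at 21.8, 19.6, 21.7, 20.7 and 22.6 CPM in HFD females, against 16.8 to 19.4 CPM (median 17.2) in ND females (log2 fold change 0.26, SE 0.061, adjusted p = 0.382). Ighm, the immunoglobulin mu heavy chain, was at 57.7, 54.2, 53.3, 54.6 and 58.2 CPM in HFD females, against 28.5 to 47.2 CPM (median 39.9) in ND females (log2 fold change 0.52, SE 0.12, adjusted p = 0.382). HFD females were close to each other for Ighm and ND females widely spread. Rasal3, a Ras GTPase-activating protein of blood cells, was at 6.43, 4.65, 4.201, 5.23 and 5.61 CPM in HFD females, against 2.69 to 4.12 CPM (median 3.22) in ND females (log2 fold change 0.63, SE 0.15, adjusted p = 0.382). The largest differences without overlap were in genes at about 1 CPM, namely AI607873 (1.07 to 2.63 CPM in HFD females and 0.342 to 0.868 CPM in ND females, log2 fold change 1.25), 3110009E18Rik (1.02) and Colq (0.94), the collagen tail of acetylcholinesterase.

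**Figure D2:**
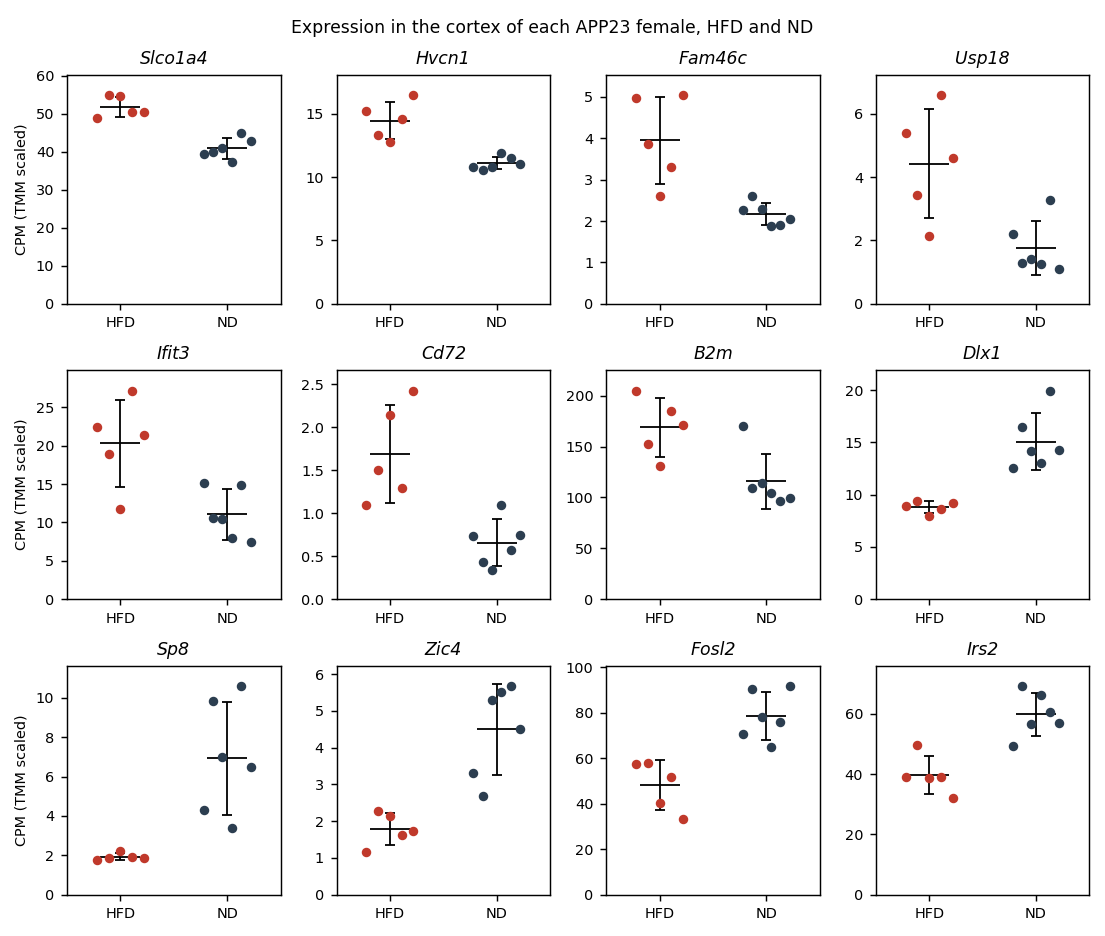
CPM (TMM scaled, axis from 0) of 12 genes in each of the 5 HFD females (left) and 6 ND females (right), with the mean and SD as bars. Slco1a4, Hvcn1, Fam46c, Dlx1, Sp8, Zic4 and Fosl2 show no overlap between the diets, whereas HFD female F1094 lies among ND females for Usp18 and Ifit3.

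On the lower side the smallest p values belonged to transcription factors. Dlx1, a homeobox factor of inhibitory interneurons, was at 8.91, 9.37, 7.93, 8.66 and 9.18 CPM in HFD females, against 12.5 to 19.9 CPM (median 14.2) in ND females (log2 fold change -0.77, SE 0.12, adjusted p = 0.1304). HFD females were close to each other, and the lowest ND female was well above them. Sp8, a zinc finger factor of interneurons bound for the olfactory bulb, was at 1.75, 1.86, 2.22, 1.94 and 1.85 CPM in HFD females, against 3.38 to 10.6 CPM (median 6.73) in ND females (log2 fold change -1.85, SE 0.29, adjusted p = 0.1304). Zic4, a factor of the cerebellar and forebrain midline, was at 1.17, 2.29, 2.14, 1.61 and 1.72 CPM in HFD females, against 2.69 to 5.66 CPM (median 4.904) in ND females (log2 fold change -1.34, SE 0.23, adjusted p = 0.1304). ND females differed among themselves more than HFD females did for both genes. A230065H16Rik, which the files do not annotate further, was at 0.219, 0.358, 0.238, 0.323 and 0.765 CPM in HFD females, against 0.868 to 4.91 CPM (median 2.55) in ND females (log2 fold change -2.78, SE 0.46, adjusted p = 0.1304).

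Other genes below without overlap had smaller fold changes and various roles. Nrxn2, a presynaptic adhesion molecule, was at 281, 294, 275, 279.6 and 260.1 CPM in HFD females, against 301 to 365 CPM (median 334) in ND females (log2 fold change -0.25, SE 0.053, adjusted p = 0.346). Atp13a2, a lysosomal transporter of polyamines, was at 119, 124, 125, 117 and 117 CPM in HFD females, against 130.4 to 144 CPM (median 137) in ND females (log2 fold change -0.19, SE 0.04, adjusted p = 0.346). Atp6v0c, the proteolipid that forms the ring of the lysosomal proton pump, was at 115, 124, 116, 112 and 115 CPM in HFD females, against 128 to 153 CPM (median 132) in ND females (log2 fold change -0.21, SE 0.051, adjusted p = 0.382). With all mice it was the only one of 21 tested subunits and partners of that pump to be called (without HFD female F1063, 2 were called lower and 1 higher), and their median log2 fold change was -0.0053. Col4a2, a collagen of basement membranes, was at 42.7, 42.6, 45.6, 41.5 and 42.7 CPM in HFD females, against 47.1 to 59.1 CPM (median 53.9) in ND females (log2 fold change -0.30, SE 0.064, adjusted p = 0.346). Vgf, a neuropeptide precursor induced by activity and neurotrophins, was at 147, 191, 158, 191 and 122 CPM in HFD females, against 198 to 257 CPM (median 208) in ND females (log2 fold change -0.41, SE 0.11, adjusted p = 0.386). Kcng1, a silent subunit of voltage-gated potassium channels, was at 17.7, 18.9, 16.01, 17.1 and 13.2 CPM in HFD females, against 19.4 to 37.4 CPM (median 24.1) in ND females (log2 fold change -0.62, SE 0.15, adjusted p = 0.382). HFD female F1252 had the lowest level of Vgf and Kcng1 among the 11 females. Among scarce genes, no overlap was seen in Igfbpl1 (0.438 to 1.03 CPM in HFD females and 1.22 to 1.78 CPM in ND females, log2 fold change -1.07) and Fxyd2 (-0.69), a regulator of the sodium pump. The processed pseudogene Mif-ps6 (4.76 to 5.796 CPM in HFD females and 6.44 to 8.13 CPM in ND females, -0.51) may share reads with its parent gene.

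Interferon-stimulated genes formed the largest group that was higher on HFD. Of 67 listed genes 65 were in the table and 64 were tested, 50 were called higher and none lower, and 64 had a positive fold change. Their median log2 fold change was 0.56, against 0.0019 over all genes tested, and 38 kept the call whichever female was left out. Of the 64, 2 had every HFD female above every ND female, against 0.332% of all genes tested. HFD female F1094 had the lowest list mean of its diet (2.55), and ND females A1092 (2.78) and F1104 (2.67) lay above it. The list means were 2.55 to 3.22 in HFD females and 2.11 to 2.78 in ND females. Leaving out single females changed the number called higher to between 40 (without HFD female F1063) and 56 (without HFD female F1094).

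Promoters of 3 members show the element through which interferon acts. The core of the interferon-stimulated response element, GAAANNGAA, was searched on both strands, with overlapping matches allowed, in RefSeq promoters (build GRCm38.p6, 250 bases before to 50 after the start). A promoter entry was found for 48 of the 65 members in the table, under 80%, so a comparison of the list's share with all promoters is void. The element was in 28 of these 48, and in 9.76% of all 27025 genes with promoter entries. The 250 bases before the start are given for Ifit1 (chr19:34640639-34640888, plus strand), Ifit3 (chr19:34583279-34583528, plus strand) and Isg15 (chr4:156200819-156201068, minus strand), chosen because each held 3 matches. Capitals mark the matches, some of which overlap, and in Ifit1 and Ifit3 the element lies on the other strand and reads as its reverse complement.
Ifit1: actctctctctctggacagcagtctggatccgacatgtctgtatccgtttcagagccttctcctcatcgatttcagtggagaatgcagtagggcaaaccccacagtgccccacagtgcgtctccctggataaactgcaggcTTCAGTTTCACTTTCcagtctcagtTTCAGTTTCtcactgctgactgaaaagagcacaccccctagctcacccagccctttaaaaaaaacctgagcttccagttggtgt
Ifit3: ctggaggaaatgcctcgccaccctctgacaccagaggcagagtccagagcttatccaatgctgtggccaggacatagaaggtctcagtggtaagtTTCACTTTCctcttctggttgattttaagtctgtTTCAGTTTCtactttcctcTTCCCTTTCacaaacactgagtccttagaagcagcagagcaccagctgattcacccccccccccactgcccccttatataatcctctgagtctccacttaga
Isg15: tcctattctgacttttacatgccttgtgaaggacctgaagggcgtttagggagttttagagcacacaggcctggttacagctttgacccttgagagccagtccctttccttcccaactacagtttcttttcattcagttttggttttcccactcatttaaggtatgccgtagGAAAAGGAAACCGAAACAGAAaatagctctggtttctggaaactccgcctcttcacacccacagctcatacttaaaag
The first base of the outermost match lay 109 bases before the start in Ifit1, 155 in Ifit3 and 78 in Isg15. A match describes the letters only and does not show that a factor was bound. Members of the list that were described after their values were seen are Ifit1, Ifit3, Isg15, Irf7, Bst2, Oas1a, Irgm1, Usp18 and Irf9.

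The antiviral effectors Ifit1 and Ifit3, which bind foreign RNA, were higher in 4 HFD females than in any ND female. Ifit1 was at 11.6, 10.2, 5.39, 13.8 and 10.3 CPM in HFD females, against 4.01 to 7.51 CPM (median 4.58) in ND females (log2 fold change 0.93, SE 0.24, adjusted p = 0.384). Ifit3 was at 22.4, 18.96, 11.7, 27.1 and 21.4 CPM in HFD females, against 7.45 to 15.2 CPM (median 10.49) in ND females (log2 fold change 0.87, SE 0.23, adjusted p = 0.386). In both, HFD female F1094 was the lowest of its diet and lay below the ND females with the most. Isg15, a ubiquitin-like modifier, was at 5.19, 4.15, 2.06, 5.81 and 3.64 CPM in HFD females, against 1.78 to 3.81 CPM (median 2.58) in ND females (log2 fold change 0.63, SE 0.26, adjusted p = 0.561), and lost the call without any of HFD females F1063 or F1100 or ND females F1102 or F1139. Usp18, the protease that removes it, was at 5.404, 3.43, 2.14, 6.59 and 4.59 CPM in HFD females, against 1.09 to 3.29 CPM (median 1.36) in ND females (log2 fold change 1.30, SE 0.32, adjusted p = 0.382).

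Sensors and transcription factors of the response went the same way. Irf7, which amplifies type I interferon, was at 11.03, 7.23, 3.65, 9.24 and 5.93 CPM in HFD females, against 1.89 to 4.98 CPM (median 2.68) in ND females (log2 fold change 1.20, SE 0.33, adjusted p = 0.386). HFD female F1094 lay within the ND range. Irf9, another transcription factor of the response, had a log2 fold change of 0.43 (adjusted p = 0.464). Ifih1, a sensor of double-stranded RNA, was at 14.6, 13.5, 9.51, 14.7 and 10.8 CPM in HFD females, against 5.499 to 10.6 CPM (median 8.32) in ND females (log2 fold change 0.62, SE 0.15, adjusted p = 0.382). Rtp4, a receptor-transporting protein induced by interferon, was at 6.86, 5.15, 3.33, 5.17 and 5.61 CPM in HFD females, against 1.73 to 3.504 CPM (median 2.75) in ND females (log2 fold change 0.95, SE 0.21, adjusted p = 0.382). Trim30a, a ubiquitin ligase, was at 7.81, 7.299, 4.201, 8.01 and 7.46 CPM in HFD females, against 2.28 to 5.47 CPM (median 3.72) in ND females (log2 fold change 0.83, SE 0.20, adjusted p = 0.382). For Ifih1, Rtp4 and Trim30a, HFD female F1094 lay among the ND females and the other 4 HFD females lay above all of them.

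Members with other roles covered a range of sizes. Cxcl10, a chemokine for T cells, was at 5.696, 3.15, 3.09, 8.398 and 5.87 CPM in HFD females, against 0.394 to 3.197 CPM (median 2.101) in ND females (log2 fold change 1.33, SE 0.38, adjusted p = 0.405). Bst2, which tethers virus at the membrane, was at 9.42, 6.44, 4.52, 11.6 and 7.08 CPM in HFD females, against 2.32 to 6.76 CPM (median 4.13) in ND females (log2 fold change 0.80, SE 0.27, adjusted p = 0.467). Oas1a, an oligoadenylate synthetase, was at 3.07, 2.08, 1.35, 2.39 and 2.04 CPM in HFD females, against 0.551 to 1.48 CPM (median 1.26) in ND females (log2 fold change 0.91, SE 0.25, adjusted p = 0.386). HFD female F1094 was the lowest of her diet for all 3. Among the GTPases that interferon gamma induces, Gbp2 was at 0.56 (adjusted p = 0.384) and Irgm1 at 0.60 (adjusted p = 0.384) on the log2 scale. Reads of the Oas and Gbp families can be shared between near copies, so values of single members are less certain than the group.

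**Figure D3:**
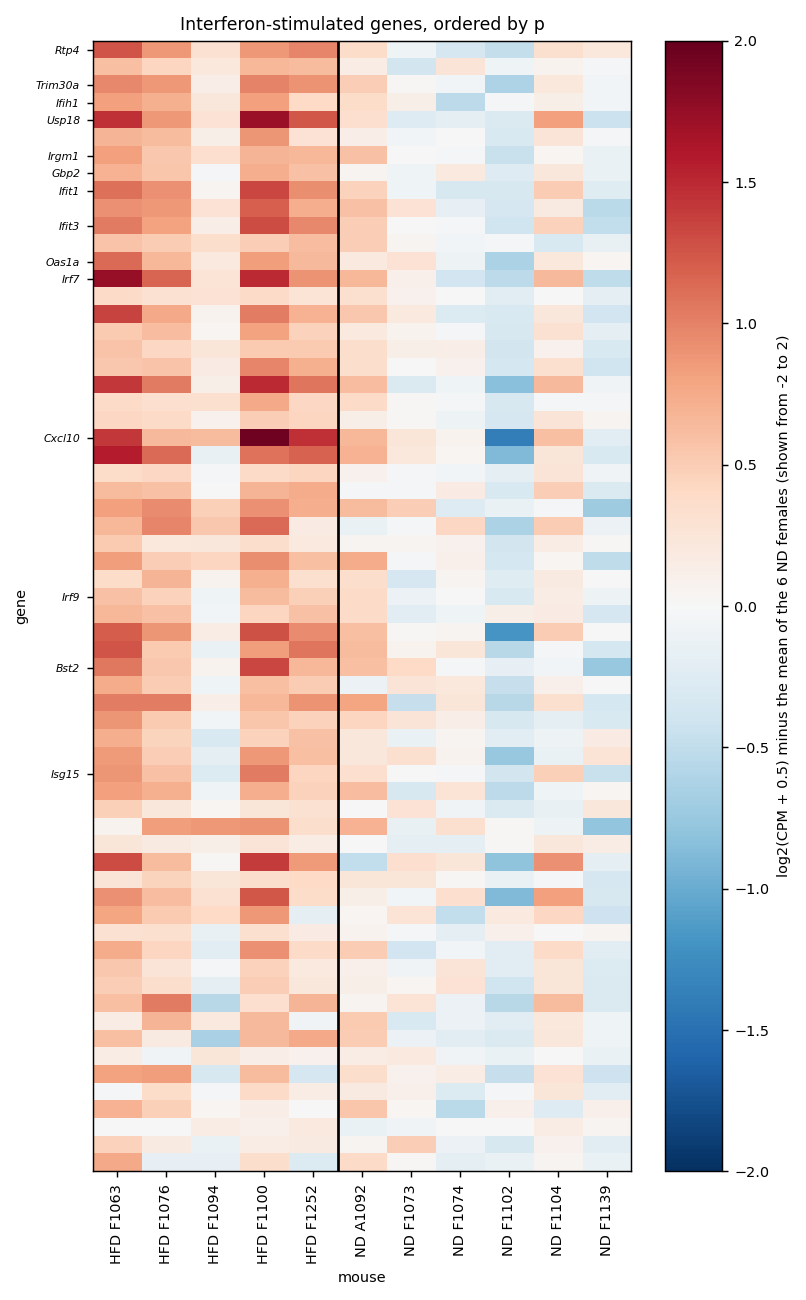
Each tested interferon-stimulated gene (64 genes, ordered by p) in each of the 5 HFD females (left of the line) and 6 ND females, as log2(CPM + 0.5) minus the mean of the 6 ND females, with colours shown from -2 to 2 and names given for the genes described in the text. HFD females F1063, F1076, F1100 and F1252 are darker red over most genes than F1094, and ND females A1092 and F1104 are redder than the other ND females.

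Genes of microglia were also called higher, with smaller fold changes. Of 17 homeostatic microglia markers 6 were called higher and none lower, and the median log2 fold change was 0.24. Of 33 tested plaque-associated microglia genes 18 were called higher, with a median of 0.36, and 6 are also cathepsins and lysosomal enzymes of another list. The sum over the homeostatic markers, which define the cell type, was 747 to 1070.4 CPM in HFD females and 721 to 932 CPM in ND females, and in these bulk samples more microglia and more RNA per microglial cell cannot be told apart. The counts turned on single mice. Homeostatic calls were 3 without HFD female F1063 or F1252, 12 without F1094 and 10 without ND female A1092. Plaque-associated calls were 5 without HFD female F1252, 7 without F1063, 11 without F1100 and 9 without either ND female F1104 or F1139. They rose to 25 without HFD female F1076 or F1094, and 5 were made in all 11 such fits. HFD female F1094 was the lowest of its diet for both lists and ND female A1092 the highest of hers. The same mice had the lowest HFD and the highest ND mean of the interferon-stimulated genes, and the part of one group of genes in the other was not tested.

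Cx3cr1, the fractalkine receptor of microglia, was at 106, 86.7, 77.5, 91.3 and 96.95 CPM in HFD females, against 70.4 to 88.9 CPM (median 76.3) in ND females (log2 fold change 0.24, SE 0.08, adjusted p = 0.464). P2ry12, a purine receptor that marks resting microglia, was not called (42.5 to 56.8 CPM in HFD females and 43.3 to 52.8 CPM in ND females, adjusted p = 0.718). Csf1r, the growth factor receptor on which microglia depend, was at 192, 152, 138, 161 and 189.7 CPM in HFD females, against 124 to 159.7 CPM (median 139.6) in ND females (log2 fold change 0.25, SE 0.09, adjusted p = 0.491). HFD females F1063 and F1252 had the highest levels of Csf1r, which was not called when either of these mice was left out. Siglech, a sialic acid receptor, was at 31.7, 28.3, 15.7, 26.6 and 31.2 CPM in HFD females, against 18.1 to 23.5 CPM (median 19.7) in ND females (log2 fold change 0.41, SE 0.15, adjusted p = 0.491).

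The lipid receptor Trem2 and its adaptor Tyrobp were called, with wide spread. Trem2 was at 45.4, 23.7, 20.4, 34.8 and 44.1 CPM in HFD females, against 17.01 to 39.6 CPM (median 17.96) in ND females (log2 fold change 0.62, SE 0.27, adjusted p = 0.577). Tyrobp was at 51.6, 30.3, 24.3, 40.1 and 46.6 CPM in HFD females, against 19.7 to 44.4 CPM (median 22.6) in ND females (log2 fold change 0.57, SE 0.24, adjusted p = 0.5701). In both genes HFD females F1063, F1100 and F1252 were high, F1094 lay among the ND females, F1076 just above most of them, and ND female A1092 was as high as the high HFD females. The call on Trem2 was lost without HFD female F1063, F1100 or F1252, or without any ND female but A1092, and that on Tyrobp without 7 of the 11 females. These were HFD females F1063, F1100 and F1252 and ND females F1074, F1102, F1104 and F1139. Within TREM2-TYROBP signalling 6 of 13 tested genes were called higher (3 without F1063, F1252, F1104 or F1139 and 11 without F1094). Vav1, an exchange factor downstream of such receptors, was at 9.64, 8.01, 5.31, 7.88 and 10.3 CPM in HFD females, against 4.33 to 6.58 CPM (median 5.02) in ND females (log2 fold change 0.65, SE 0.16, adjusted p = 0.382). Treml2, a relative of Trem2, was at 2.99, 1.503, 0.951, 1.55 and 2.105 CPM in HFD females, against 0.636 to 1.13 CPM (median 0.925) in ND females (log2 fold change 1.05, SE 0.28, adjusted p = 0.384).

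Other plaque-associated genes were more even. Csf1, the ligand of Csf1r, was at 41.2, 33.3, 30.2, 35.7 and 41.3 CPM in HFD females, against 24.01 to 33.9 CPM (median 27.6) in ND females (log2 fold change 0.37, SE 0.11, adjusted p = 0.405). Ctsb, cathepsin B, was at 883, 754, 807, 782 and 855 CPM in HFD females, against 629 to 821 CPM (median 686) in ND females (log2 fold change 0.23, SE 0.068, adjusted p = 0.405). Fth1, ferritin heavy chain, was at 813, 713, 759, 782 and 855 CPM in HFD females, against 566 to 825 CPM (median 619) in ND females (log2 fold change 0.28, SE 0.089, adjusted p = 0.446). All 3 were called in every fit that left out 1 female. The lectin Clec7a, a defining gene of the program, had a larger fold change and a larger error (log2 fold change 0.87, SE 0.40, adjusted p = 0.5897), at 3.65 to 12.5 CPM in HFD females and 1.42 to 8.79 CPM in ND females, and lost the call without any 1 of 7 females (HFD F1063, F1100 or F1252, or ND F1074, F1102, F1104 or F1139), with DESeq2, with library totals and in the fit of all 19 libraries. Lyz2, lysozyme of myeloid cells, taken up after its values were seen, was at 44.7, 21.4, 16.6, 25.1 and 35.3 CPM in HFD females, against 12.5 to 26.4 CPM (median 14.7) in ND females (log2 fold change 0.73, SE 0.27, adjusted p = 0.495), and the call was lost without HFD female F1063 or F1252.

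Inhibitory receptors of myeloid and B cells included Cd72 and Cd22, which exceeded 1 log2 unit, while the list median was 0.36. Cd72 was at 1.095, 1.503, 2.14, 1.29 and 2.42 CPM in HFD females, against 0.335 to 1.102 CPM (median 0.658) in ND females (log2 fold change 1.36, SE 0.30, adjusted p = 0.382). Cd22, which binds sialic acids and holds phagocytes back, was at 2.63, 1.57, 1.51, 2.39 and 2.55 CPM in HFD females, against 0.671 to 1.72 CPM (median 0.883) in ND females (log2 fold change 1.04, SE 0.26, adjusted p = 0.382). Both were scarce in every mouse, and for each the highest ND female reached the lowest HFD females. Of 13 tested genes of the list 7 were called higher and none lower, but 2 without HFD female F1252 or ND females F1102 or F1104, 3 without F1063 or F1139, and 4 without F1073 or F1074. Without HFD female F1094, 10 were called higher.

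Complement and antigen presentation showed the same mice high and low. C1qa, a chain of the initiating complement complex, was at 128, 85.6, 74.1, 112 and 131 CPM in HFD females, against 66.7 to 103 CPM (median 71.7) in ND females (log2 fold change 0.47, SE 0.16, adjusted p = 0.464). C3ar1, the anaphylatoxin receptor, was at 10.8, 5.295, 6.18, 7.2996 and 8.93 CPM in HFD females, against 4.33 to 8.05 CPM (median 4.87) in ND females (log2 fold change 0.53, SE 0.20, adjusted p = 0.505). C3ar1 lost the call without HFD female F1063 or F1252. In all, 7 of 20 complement genes were called higher, 3 without either of these 2 mice and 4 without ND female F1073 or F1139. Without HFD female F1094, 10 were called higher. B2m, the light chain of MHC class I, was at 205, 152, 131, 185 and 171 CPM in HFD females, against 96.8 to 170.0 CPM (median 107) in ND females (log2 fold change 0.54, SE 0.15, adjusted p = 0.396). H2-D1, a heavy chain, was at 109, 82.9, 55.8, 98.3 and 86.5 CPM in HFD females, against 51.1 to 80.97 CPM (median 56.5) in ND females (log2 fold change 0.54, SE 0.16, adjusted p = 0.405), and H2-K1 had a log2 fold change of 0.42 (adjusted p = 0.491). The H2 genes are near copies of each other and can share reads. Of 18 tested class I genes 11 were called higher (7 without HFD female F1100 or ND female F1139), with a median of 0.28. Of 10 class II genes 3 were called higher, with a median of 0.57, and 2 kept the call in every fit that left out 1 female. The number was 2 without HFD female F1252 or ND female F1104, 7 without HFD female F1094 and 5 without ND female A1092. Cd74, the invariant chain, was at 17.7, 17.2, 7.93, 10.98 and 30.9 CPM in HFD females, against 4.08 to 13.6 CPM (median 7.98) in ND females (log2 fold change 0.95, SE 0.37, adjusted p = 0.5404), and its log2 fold change was 0.62 without HFD female F1252 and 0.83 without ND female F1104, with the call lost in both cases. Ifi30, a lysosomal reductase for antigens, was at 4.75, 2.93, 3.49, 4.01 and 4.15 CPM in HFD females, against 2.26 to 3.15 CPM (median 2.44) in ND females (log2 fold change 0.56, SE 0.15, adjusted p = 0.386).

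Enzymes that phagocytes use on their cargo were in the same group. Cybb, the catalytic subunit of the NADPH oxidase, was at 5.77, 3.36, 2.22, 3.101 and 4.85 CPM in HFD females, against 1.26 to 2.77 CPM (median 1.896) in ND females (log2 fold change 1.02, SE 0.27, adjusted p = 0.384). Ncf1, its organiser, was at 16.8, 12.6, 10.2, 13.8 and 13.6 CPM in HFD females, against 6.902 to 11.9 CPM (median 9.28) in ND females (log2 fold change 0.48, SE 0.14, adjusted p = 0.405). With Hvcn1, 4 of 7 members of the oxidase list were called and 3 kept the call in every fit that left out 1 female. Without HFD female F1094 or ND female A1092, 6 were called. Ctss, cathepsin S, was at 229, 149.7, 112, 173 and 212 CPM in HFD females, against 97.8 to 162 CPM (median 108) in ND females (log2 fold change 0.58, SE 0.18, adjusted p = 0.438). Ctsc, cathepsin C, was at 13.1, 12.95, 9.43, 13.2 and 14.9 CPM in HFD females, against 7.8996 to 11.7 CPM (median 8.499) in ND females (log2 fold change 0.47, SE 0.13, adjusted p = 0.386). Of 16 cathepsins and cystatins 8 were called higher, 5 without HFD female F1063 or F1252 and 12 without HFD female F1094 or ND female A1092. Among Toll-like receptors and co-receptors 6 of 17 were called higher, 3 without F1063, F1252, F1073, F1074, F1104 or F1139 and 9 without HFD female F1094. Cd180, a co-receptor of B cells and microglia, was at 9.06, 4.65, 3.96, 5.49 and 7.27 CPM in HFD females, against 2.68 to 4.65 CPM (median 3.77) in ND females (log2 fold change 0.72, SE 0.21, adjusted p = 0.396). Its partner Ly86 was at 26.2, 14.7, 13.3, 24.5 and 29.7 CPM in HFD females, against 12.1 to 19.1 CPM (median 13.8) in ND females (log2 fold change 0.61, SE 0.21, adjusted p = 0.467).

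**Figure D4:**
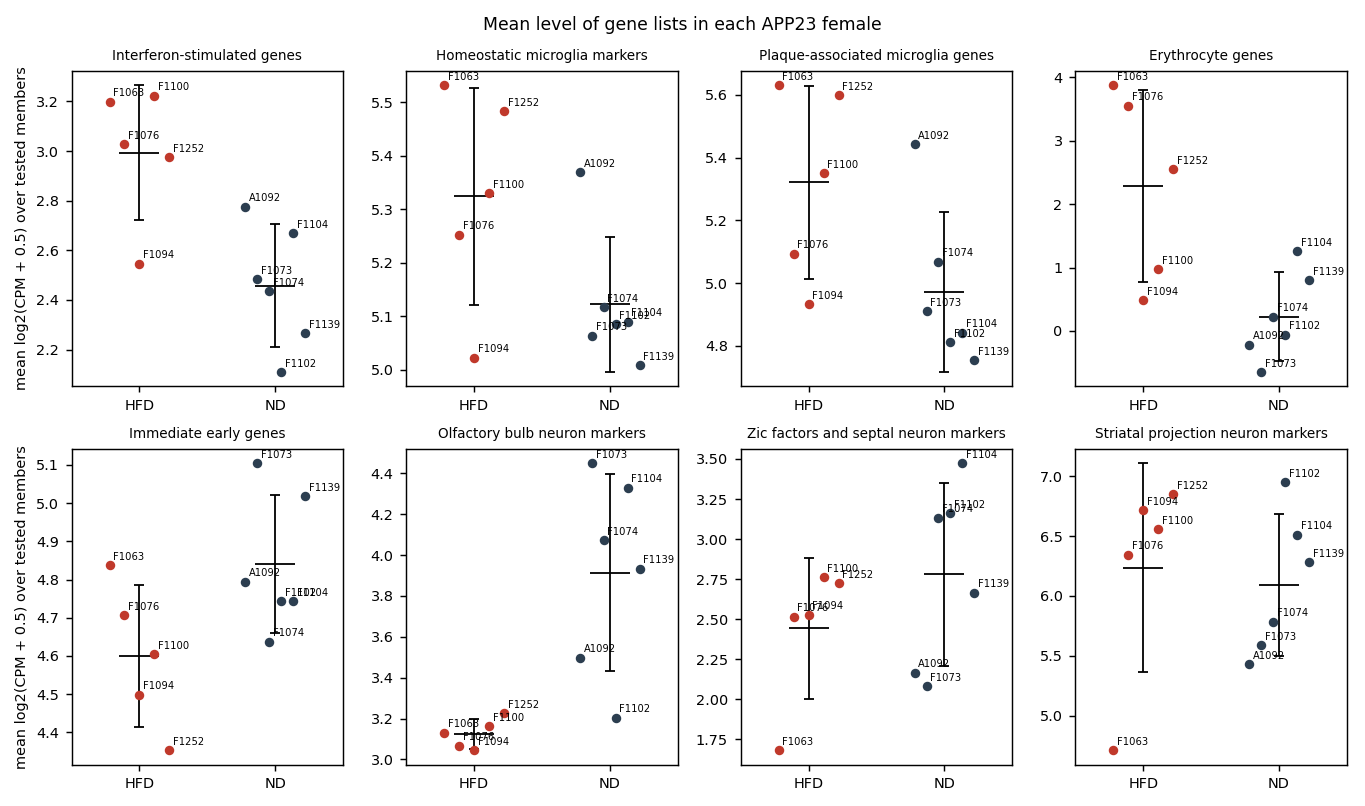
Mean log2(CPM + 0.5) over the tested members of 8 gene lists in each of the 5 HFD females (left) and 6 ND females (right), with the mean and SD as bars and mouse identifiers beside the points. F1094 is the lowest HFD female for the 2 microglial lists and A1092 the highest ND female, and olfactory bulb markers lie between 3.04 and 3.23 in HFD females and between 3.20 and 4.45 in ND females.

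Reactive astrocyte genes were called higher in 7 of 22 tested and had a median log2 fold change of 0.31, while of 15 astrocyte markers 1 was called in each direction. The number was 3 without HFD female F1063 or F1252 or ND female F1104, 4 without F1139 and 12 without HFD female F1094. Osmr, the oncostatin M receptor, was at 14.97, 9.45, 7.05, 11.7 and 19.6 CPM in HFD females, against 6.15 to 11.4 CPM (median 7.66) in ND females (log2 fold change 0.64, SE 0.25, adjusted p = 0.5404). HFD female F1252 had the highest level, and without her the log2 fold change was 0.42. The call was also lost without HFD female F1063 or ND female F1104. Myelin and oligodendrocyte markers were called in 1 of 20, but in 11 without ND female F1102, in 4 without HFD female F1063 or ND female A1092, in 3 without F1094 and in none when HFD female F1100 or F1252 or ND female F1073, F1074, F1104 or F1139 was left out.

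Blood and vessel genes differed as well. All 5 tested erythrocyte genes were called higher (4 without ND female F1104), at a median log2 fold change of 3.13. The summed level was 4.597 to 94.3 CPM in HFD females and 0.781 to 10.1 CPM in ND females. Hba-a1, alpha globin, was at 35.6, 24.4, 1.03, 2.97 and 8.55 CPM in HFD females, against 0.347 to 3.12 CPM (median 1.06) in ND females (log2 fold change 3.24, SE 0.79, adjusted p = 0.382), and Hba-a2 had a log2 fold change of 3.13. The globin copies are nearly identical and share reads. Hbb-bs, beta globin, was at 5.33, 12.8, 0.872, 0.904 and 6.25 CPM in HFD females, against 0 to 1.16 CPM (median 0.252) in ND females (log2 fold change 3.51, SE 0.79, adjusted p = 0.382), and ND female F1073 had no read of it. Hbb-b1 was at 24.1, 15.7, 0.634, 1.87 and 6.51 CPM in HFD females, against 0 to 2.83 CPM (median 0.808) in ND females (log2 fold change 3.12, SE 0.83, adjusted p = 0.386). HFD females F1063, F1076 and F1252 carried most of these reads, and F1094 and F1100 lay inside the ND range. Alas2, the heme enzyme of red cell precursors, taken up after its values were seen, followed the same mice (0.646 to 4.82 CPM in HFD females and 0 to 1.16 CPM in ND females, log2 fold change 2.35, adjusted p = 0.405). S100a9, a neutrophil protein, was at 35.7, 0.572, 0.159, 0.711 and 0.255 CPM in HFD females, against 0.174 to 1.37 CPM (median 0.745) in ND females (log2 fold change 3.25, SE 1.27, adjusted p = 0.5405). F1063 alone was high, and without her the log2 fold change was -0.83. Igkc, the kappa light chain, was at 7.38, 2.79, 0.951, 3.55 and 2.105 CPM in HFD females, against 0 to 2.15 CPM (median 0.6247) in ND females (log2 fold change 1.87, SE 0.62, adjusted p = 0.464). Residual blood was not measured apart from these genes, and its part in the immune lists was not tested.

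Of 25 endothelial and barrier genes 5 were called higher and none lower (9 without HFD female F1063 and 3 without F1100), with a median of 0.11. Beside Slco1a4 and Tek, Abcb1a, the drug efflux pump P-glycoprotein, was at 37.1, 43.1, 45.02, 41.7 and 39.9 CPM in HFD females, against 31.97 to 38.1 CPM (median 36.9) in ND females (log2 fold change 0.21, SE 0.064, adjusted p = 0.423). Ly6c1, a surface protein of brain endothelium, was at 19.4, 28.9, 27.03, 27.3 and 24.2 CPM in HFD females, against 15.03 to 23.1 CPM (median 21.4) in ND females (log2 fold change 0.30, SE 0.12, adjusted p = 0.529), and was not called without HFD female F1076, F1094 or F1100. HFD female F1063, with the most reads of Hba-a1, had the lowest Slco1a4 and Tek of her diet.

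Markers of olfactory bulb neurons were lower on HFD by the largest margin of any list described here. Of 20 listed markers 19 were in the table and 17 were tested, 11 were called lower and none higher, and the median log2 fold change was -1.27. HFD females were alike (list means 3.04 to 3.23), whereas ND females ranged from F1102 at 3.20 to F1073 at 4.45, and A1092 was at 3.50. ND female F1102 was thus inside the HFD range and the other 5 ND females were above it. Calls numbered 7 without ND females F1073, F1104 or F1139 and 13 without HFD female F1076 or F1252 or ND female F1102. In all fits that left out 1 female, 7 members were called. How much bulb tissue each dissection held was not recorded in the sources used here, and its part in the difference was not tested.

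Eomes, a T-box factor of bulb projection neurons, was at 0.365, 0.215, 0.238, 0.388 and 0.191 CPM in HFD females, against 0.0787 to 7.73 CPM (median 2.57) in ND females (log2 fold change -3.44, SE 0.78, adjusted p = 0.382). Scgn, the calcium sensor secretagogin, was at 0.365, 0.143, 0.159, 0.388 and 0.319 CPM in HFD females, against 0.315 to 4.08 CPM (median 1.69) in ND females (log2 fold change -2.84, SE 0.57, adjusted p = 0.346). HFD females had 2 to 6 reads of either gene, and ND female F1102 had 1 read of Eomes and 4 of Scgn. Sp8 and Scgn passed an adjusted p of 0.05 when F1102 was left out (0.0188 and 0.0459). Calb2, calretinin of bulb interneurons, was at 15.99, 12.5, 8.64, 14.99 and 14.03 CPM in HFD females, against 12.99 to 53.4 CPM (median 32.6) in ND females (log2 fold change -1.28, SE 0.31, adjusted p = 0.382). Th, the enzyme of dopamine synthesis, was at 2.702, 2.65, 1.74, 4.01 and 2.81 CPM in HFD females, against 3.07 to 11.1 CPM (median 5.89) in ND females (log2 fold change -1.27, SE 0.32, adjusted p = 0.384). Cdhr1, a cadherin of mitral cells and photoreceptors, was at 14.5, 16.2, 15.1, 11.6 and 11.9 CPM in HFD females, against 12.2 to 61.3 CPM (median 34.2) in ND females (log2 fold change -1.29, SE 0.37, adjusted p = 0.405), where ND females A1092 and F1102 were inside the HFD range. Doc2g was at 3.94, 1.72, 3.33, 3.75 and 3.6995 CPM in HFD females, against 3.62 to 19.4 CPM (median 7.62) in ND females (log2 fold change -1.59, SE 0.40, adjusted p = 0.384). For Th, Cdhr1 and Doc2g, F1073 and F1104 were the ND females with the highest levels. Trh, thyrotropin-releasing hormone, was at 2.26, 2.79, 2.14, 2.196 and 2.74 CPM in HFD females, against 2.34 to 20.3 CPM (median 5.54) in ND females (log2 fold change -1.62, SE 0.49, adjusted p = 0.423), and the log2 fold change was -0.998 without ND female F1074. Th, Cdhr1, Doc2g and Trh were taken up after their values were seen.

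Some factors of interneuron and midline lineages were called lower, with less dependence on single mice. Of 18 interneuron lineage transcription factors 4 were called lower, Dlx1, Dlx2 and Sp8 among them, all 4 in every fit that left out 1 female, with a list median of -0.16. The list shares 2 genes with the olfactory bulb markers, so the 2 lists are not separate. Dlx2 was at 5.55, 3.58, 4.201, 4.46 and 4.91 CPM in HFD females, against 5.29 to 7.68 CPM (median 5.93) in ND females (log2 fold change -0.46, SE 0.14, adjusted p = 0.405). Without HFD female F1063, the lowest of the list, 6 were called. Gad1, the enzyme of GABA synthesis that all such neurons need, was not called (362 to 565 CPM in HFD females and 463 to 755 CPM in ND females, adjusted p = 0.608). Of 12 tested Zic factors and septal markers 5 were called lower in every fit that left out 1 female, Zic1, Zic2, Zic4 and Trpc4 among them. Zic1 was at 6.21, 11.7, 9.59, 17.4 and 13.1 CPM in HFD females, against 13.7 to 40.2 CPM (median 25.1) in ND females (log2 fold change -1.12, SE 0.30, adjusted p = 0.386). Trpc4, a cation channel of septal neurons, was at 15.99, 14.8, 13.9, 12.9 and 10.01 CPM in HFD females, against 15.001 to 26.7 CPM (median 22.1) in ND females (log2 fold change -0.67, SE 0.15, adjusted p = 0.382). ND females A1092 and F1073 had the fewest reads of Zic1 among their diet and lay within the HFD range.

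Thalamic markers were called lower in 3 of 10, Prkcd, Ntng1 and Calb2, of which Calb2 is also a bulb marker. Prkcd, a protein kinase C of thalamic relay neurons, was at 12.8, 12.5, 8.402, 11.6 and 13.9 CPM in HFD females, against 9.202 to 28.5 CPM (median 21.1) in ND females (log2 fold change -0.78, SE 0.24, adjusted p = 0.438), and ND female F1073 was within the HFD range. Ntng1, a netrin of thalamic axons, was at 20.2, 19.9, 25.8, 14.02 and 18.4 CPM in HFD females, against 21.4 to 34.3 CPM (median 25.9) in ND females (log2 fold change -0.45, SE 0.15, adjusted p = 0.467). Glp1r, the receptor of glucagon-like peptide, was at 0.07303, 0.286, 0.238, 0.388 and 0.446 CPM in HFD females, against 0.347 to 2.41 CPM (median 1.81) in ND females (log2 fold change -2.35, SE 0.48, adjusted p = 0.346), and HFD female F1063 had 1 read of it.

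Part of the immediate early genes were called lower. Of 48 tested, 15 were called lower and none higher, the median log2 fold change was -0.23, and 10 kept the call in every fit that left out 1 female. The number called lower was 11 without HFD female F1094 or F1252 or ND female F1139, and 19 without HFD female F1063. The list mean was 4.35 to 4.84 in HFD females and 4.64 to 5.10 in ND females, with HFD female F1252 the lowest and ND females F1073 and F1139 the highest. Fosl2, Vgf and Klf4 separated all HFD from all ND females. Fosl2, an AP-1 factor, was at 57.5, 57.7, 40.3, 51.7 and 33.4 CPM in HFD females, against 64.9 to 91.5 CPM (median 76.99) in ND females (log2 fold change -0.71, SE 0.14, adjusted p = 0.346). Klf4, a zinc finger factor that restrains axon growth, was at 7.01, 7.66, 7.53, 7.23 and 8.04 CPM in HFD females, against 8.201 to 10.2 CPM (median 9.08) in ND females (log2 fold change -0.27, SE 0.083, adjusted p = 0.423), with the diets nearly touching. Fosb, another AP-1 factor, was at 24.7, 24.5, 14.03, 20.6 and 17.03 CPM in HFD females, against 24.6 to 41.4 CPM (median 27.7) in ND females (log2 fold change -0.60, SE 0.17, adjusted p = 0.405). In most of the list the diets overlapped. Dusp4, a phosphatase of MAP kinases, was at 9.202, 12.7, 10.54, 11.9 and 6.82 CPM in HFD females, against 12.5 to 23.004 CPM (median 15.2) in ND females (log2 fold change -0.63, SE 0.18, adjusted p = 0.396). Sik1, a salt-inducible kinase, was at 24.3, 19.2, 16.7, 18.99 and 17.2 CPM in HFD females, against 20.1 to 33.4 CPM (median 25.97) in ND females (log2 fold change -0.45, SE 0.13, adjusted p = 0.4003). Nr4a3, an orphan nuclear receptor, had a log2 fold change of -0.64 (adjusted p = 0.468). HFD female F1252 had the lowest Dusp4 of all 11 females and F1094 the lowest Sik1. Junb was at 47.2, 38.9, 29.2, 32.8 and 28.1 CPM in HFD females, against 34.8 to 69.2 CPM (median 46.01) in ND females (log2 fold change -0.46, SE 0.17, adjusted p = 0.512). Egr2 was at 17.02, 11.7, 6.103, 10.1 and 5.103 CPM in HFD females, against 10.53 to 21.7 CPM (median 16.03) in ND females (log2 fold change -0.71, SE 0.29, adjusted p = 0.565). Junb was not called without HFD female F1094 or F1252, nor Egr2 without those or ND females F1073, F1104 or F1139. Fosb and Junb were taken up after their values were seen. A promoter entry was found for 37 of the 48 members. The cyclic AMP response element TGACGTCA, searched on both strands, was in promoters of 5 of these 37. It was in none of the 11 called members with an entry. Over all 27025 genes with promoter entries the share was 2.03%, and with under 80% of the members matched this comparison is void.

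Imprinted genes, expressed from 1 parental copy and abundant in hypothalamus and septum, were called lower in 10 of 28 and higher in none, with a median of -0.18. The number lower was 6 without HFD female F1252 and 13 without HFD female F1100 or ND female F1073. Magel2, a gene of the Prader-Willi region, was at 1.53, 1.14, 0.951, 2.13 and 1.79 CPM in HFD females, against 1.48 to 7.11 CPM (median 4.17) in ND females (log2 fold change -1.49, SE 0.41, adjusted p = 0.386). Zdbf2 was at 36.3, 49.7, 34.1, 47.4 and 42.3 CPM in HFD females, against 41.5 to 73.9 CPM (median 65.7) in ND females (log2 fold change -0.54, SE 0.15, adjusted p = 0.386). Usp29 was at 51.7, 65.2, 53.4, 60.1 and 61.999 CPM in HFD females, against 57.4 to 96.4 CPM (median 79.7) in ND females (log2 fold change -0.42, SE 0.13, adjusted p = 0.461). ND females F1074, F1102, F1104 and F1139 stood above every HFD female for these 3 genes, and A1092 and F1073, the ND females with the lowest Zic1, lay in or just above the HFD range. Ube3a, a ubiquitin ligase, was lower by less (78.3 to 83.7 CPM in HFD females and 81.8 to 93.7 CPM in ND females, log2 fold change -0.13, adjusted p = 0.464), and reads from its antisense transcript Snhg14 cannot be told apart where strand was not used. Of 14 ependymal markers 3 were called lower (5 without ND female F1073, and 2 without HFD female F1252 or ND female F1074, F1102 or F1139). Hydin, a protein of motile cilia, was at 1.61, 1.36, 1.35, 1.29 and 1.21 CPM in HFD females, against 1.05 to 4.88 CPM (median 2.75) in ND females (log2 fold change -1.06, SE 0.33, adjusted p = 0.425). Ccdc153 was at 0.7303, 1.14, 0.793, 1.81 and 1.59 CPM in HFD females, against 1.302 to 3.54 CPM (median 2.099) in ND females (log2 fold change -0.85, SE 0.28, adjusted p = 0.461). Sox4, a factor of new neurons, was at 7.52, 9.804, 6.58, 8.27 and 8.36 CPM in HFD females, against 8.501 to 12.8 CPM (median 11.2) in ND females (log2 fold change -0.42, SE 0.13, adjusted p = 0.405).

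Of 28 genes of insulin signalling 4 were called lower and none higher, and the median was 0.0098. Over all genes tested, 4.5% were called lower. Irs2, an insulin receptor substrate that is itself transcribed under feeding signals, was at 39.1, 49.7, 38.7, 38.9 and 32.1 CPM in HFD females, against 49.4 to 69.01 CPM (median 58.9) in ND females (log2 fold change -0.59, SE 0.11, adjusted p = 0.243), and only the highest HFD female crossed the lowest ND female. Irs1 was at 20.6, 20.8, 20.5, 18.4 and 20.9 CPM in HFD females, against 20.8 to 24.8 CPM (median 23.02) in ND females (log2 fold change -0.17, SE 0.06, adjusted p = 0.467). Irs4, which is expressed mainly in hypothalamus, was at 0.7303, 0.9303, 1.03, 1.49 and 1.15 CPM in HFD females, against 0.434 to 5.83 CPM (median 2.24) in ND females (log2 fold change -1.40, SE 0.59, adjusted p = 0.5701), with ND females A1092 and F1073 lower than any HFD female and the other 4 higher. The call on Irs4 was lost without HFD female F1063, F1076, F1094 or F1252 or ND female F1074 or F1104, and its log2 fold change was -0.898 in limma-voom. The number of the 28 called lower was 2 without HFD female F1076 or F1252 and 5 without ND female F1073.

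Among synaptic and axonal genes most calls were lower. Over all genes tested, 4.5% were called lower and 3.92% higher. Of 51 axon guidance ligands and receptors 8 were called lower (5 without HFD female F1252 and 10 without ND female A1092). Slit2 was at 34.98, 30.1, 25.8, 23.8 and 20.03 CPM in HFD females, against 29.8 to 44.6 CPM (median 35.6) in ND females (log2 fold change -0.43, SE 0.14, adjusted p = 0.464). Slit1 was at 69.2, 56.5, 49.3, 50.4 and 43.9 CPM in HFD females, against 55.4 to 93.5 CPM (median 70.04) in ND females (log2 fold change -0.38, SE 0.14, adjusted p = 0.497), both repellents of growing axons. Slit1 was not called without HFD female F1252. Of 29 synaptic adhesion molecules 4 were called lower, Nrxn2, Nlgn3, Ptprf and Ptprs. Nlgn3, a postsynaptic partner of neurexins, had a log2 fold change of -0.16 (adjusted p = 0.464), and Ptprf, a receptor phosphatase of presynaptic sites, of -0.27 (adjusted p = 0.425). Of 35 glutamate and GABA-A receptor subunits 4 were called lower and 1 higher. The number lower was 1 without HFD female F1094 or ND female F1074, 2 without F1100, F1252, F1104 or F1139 and 7 without A1092, and the number higher was 0 in 9 of the 11 fits that left out 1 female and 2 without F1102. Of 32 genes for glutamate loading and vesicle release 1 was called higher, in every fit that left out 1 female, and none lower (3 higher without HFD female F1063 or ND female F1102, and 2 lower without F1063). Gria1, a subunit of AMPA receptors, was at 479, 454, 412, 466 and 459 CPM in HFD females, against 469 to 617 CPM (median 518) in ND females (log2 fold change -0.20, SE 0.069, adjusted p = 0.464). Col6a3, a collagen of meningeal fibroblasts, was at 4.89, 3.58, 3.25, 3.94 and 4.46 CPM in HFD females, against 4.77 to 8.42 CPM (median 6.82) in ND females (log2 fold change -0.75, SE 0.16, adjusted p = 0.352), and of 24 collagen and fibroblast genes it and Col4a2 were the 2 called with all mice (4 lower without ND female F1102, 3 lower without HFD female F1063, and 2 higher beside 2 lower without ND female F1074).

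Other groups held few calls. The shares over all genes tested were 3.92% called higher and 4.5% called lower. Of 36 subunits of respiratory complex I none was called. Of 36 subunits of complexes II to V, 1 was called higher and 2 lower, Atp5d, a subunit of ATP synthase (114 to 132 CPM in HFD females and 131 to 140.2 CPM in ND females, log2 fold change -0.15, adjusted p = 0.405), and Uqcrq, a subunit of complex III (-0.15, adjusted p = 0.464). Of 39 genes of mitochondrial import and tRNA synthetases 1 was called higher and 2 lower, and the median log2 fold change was -0.00096. With 1 female left out, 0 to 2 of them were called higher and 1 to 4 lower. Timm23, part of the import channel of mitochondria, did not overlap between the diets (1.19 to 1.57 CPM in HFD females and 1.61 to 3.21 CPM in ND females, log2 fold change -0.59). No cholesterol synthesis gene of 23 was called with all mice, and 9 were called lower without HFD female F1063. No gene of 16 for App and its secretases was called, and the median was 0.034. Bace1, the beta-secretase, was at 117 to 133 CPM in HFD females and 123 to 130.4 CPM in ND females (adjusted p = 0.783). The 6 mitochondrial genes that the study names were not called either. Leaving out 1 female gave at most 1 call in complex I or among App and its secretases, and up to 2 higher and 1 lower among these 6 (without ND female F1073). Of the study's 17 immune and cell death genes 13 were called higher, but 7 without HFD female F1063 or F1252 and 15 without F1094. The number was 8 without HFD female F1100 or ND female F1074, F1102, F1104 or F1139, and 6 were called in every such fit. Of the study's 7 tested neuronal and transcription genes 4 were called lower. Both lists were chosen on these mice and are not independent evidence of their direction.

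The same contrast in males, with 4 HFD and 4 ND mice that are not part of the female fit, gave 601 genes called higher and 601 lower (4.2% of 14293 each). Of the genes called higher in females, 541 were tested in males and 407 (75.2%) had a positive fold change there, and of those called lower 446 of 645 (69.1%) had a negative one, where the median over all genes in males was -0.0012. Interferon-stimulated genes were called higher in 14 of 56 tested in males, with a median of 0.25, against 0.56 in females. Irf7 (1.45 on the log2 scale in males) and Trim30a (0.82) were called in males too. Erythrocyte genes had a median of 0.81 in males with no member called, and olfactory bulb markers one of -0.70, also with none called. Immediate early genes had close medians (-0.23 in females and -0.22 in males), but fewer calls in males. Of 48 tested there, 5 were called lower and 1 higher, against 15 lower and none higher in females.

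The difference between the sexes in the effect of diet was tested in a fit of all 19 libraries. No gene passed an adjusted p of 0.05 (smallest 0.903), and 778 had an unadjusted p under 0.05 (5.21% of 14934), 5 of them among the 65 interferon-stimulated genes tested there. The 5 with the smallest p were Pknox1, Snhg14, Gsr, Map1s and Car3. Pknox1, a homeobox factor, had a log2 fold change of 0.0077 in females and -0.40 in males (adjusted p = 0.903 for the difference in edgeR). Gsr, glutathione reductase, had 0.13 in females and -0.30 in males (adjusted p = 0.903). Map1s, a microtubule protein, had -0.20 in females and 0.29 in males (adjusted p = 0.903), and Snhg14 had -0.18 in females and 0.34 in males (adjusted p = 0.903). Car3, a carbonic anhydrase of fat and muscle, had 0.50 in females and -1.27 in males (adjusted p = 0.903). Slco1a4, with the smallest p of the genes higher in females, had -0.033 in males (adjusted p = 0.903), and Atp6v0c had -0.21 in females and 0.23 in males (adjusted p = 0.903).

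**Figure D5:**
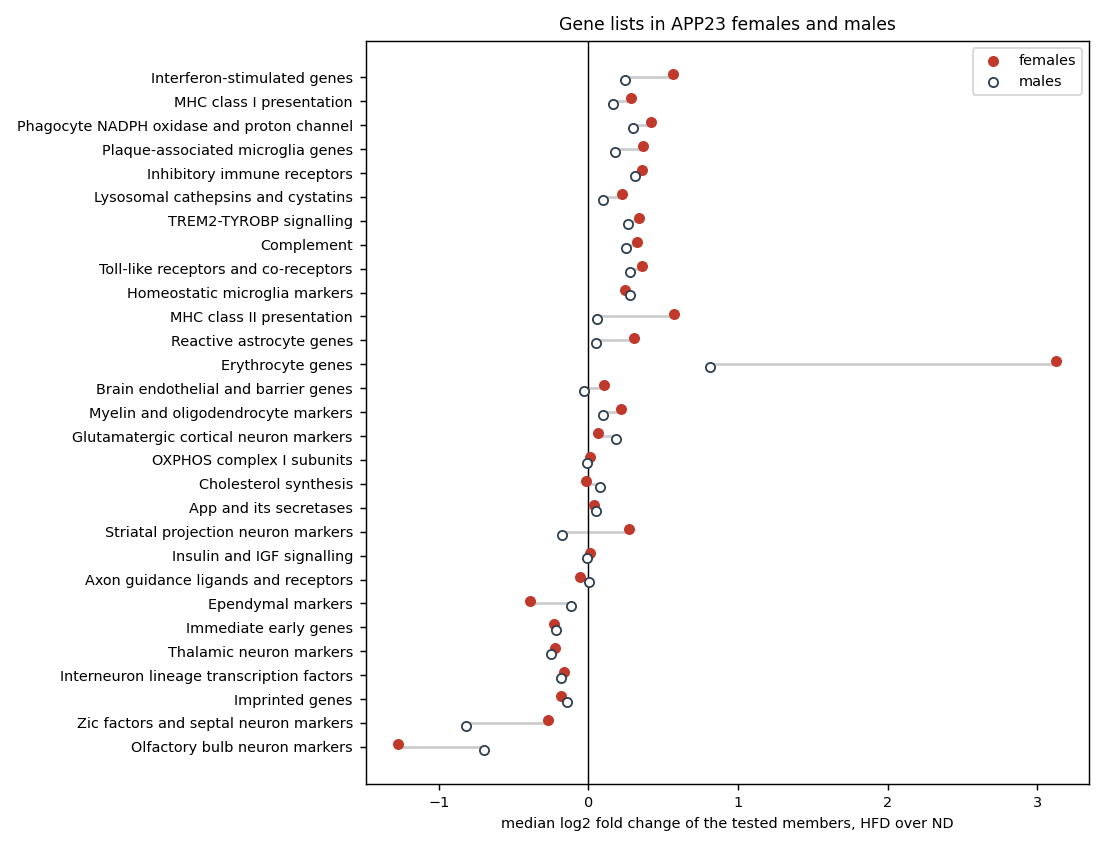
Median log2 fold change (HFD over ND) of the tested members of each gene list in females (filled, 5 HFD and 6 ND) and males (open, 4 HFD and 4 ND). The interferon-stimulated median is 0.56 in females and 0.25 in males, the erythrocyte median is 3.13 in females and 0.81 in males, and the median of immediate early genes is -0.23 in females and -0.22 in males.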

How the data were processed

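Cortex RNA of 11 APP23 females, 1 library per mouse, was analysed (5 HFD, 6 ND), and 8 male libraries served only for the comparison of the sexes. The authors aligned reads with Subread (version 1.4.0 in the submitters' processing notes) to mouse build mm9, counted them per gene with featureCounts, and deposited the counts of 14996 genes beside RPM, the counts divided by the library total and brought to a common scale. The deposited RPM were used only to recover the library totals, of which 99.2% lay in the listed genes. No strand setting, litter or batch is given in the sources used here, and the deposited table holds no coordinates that were used.

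The counts were tested in R 4.3.3 with edgeR 4.0.16 (quasi-likelihood, robust dispersions, statmod 1.5.0), after filterByExpr (minimum count 10, minimum total count 15, which left 14756 genes and removed 240) and TMM scaling. P-values were adjusted by Benjamini-Hochberg over all genes tested. The standard error is the size of the log2 fold change over the square root of the F statistic. The biological coefficient of variation was 11.1%. Males were fitted alone, and the difference between the sexes in a fit of 4 groups. The scripts were tested on simulated counts. The 62 gene lists and the members named were chosen with earlier results of these data known, 12 names were matched by a synonym, and lists are described by counts and medians. Genes named are the 12 with the smallest p in each direction, the 8 with the largest fold change in each direction among those without overlap, up to 4 of each list, the 5 with the smallest p for the difference between the sexes, and those the study's text names; others are marked in the text, and a few genes that this rule names are not reported here. Alternatives were DESeq2 1.42.0, edgeR's likelihood ratio test, limma-voom (limma 3.58.1), RLE size factors, library totals, no filter, 1 CPM in 5 libraries, a fit of all 19 libraries, and leaving out each mouse. Promoters came from RefSeq tables of another build (GRCm38.p6) than the counts. Python 3.11.15 with matplotlib 3.10.9 made the figures.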

Additional observations from a re-analysis of the deposited data

Results flagged for a closer look

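Dixon's ratio is the gap between an extreme mouse and the nearest mouse of her diet over the range of the diet, on the log2(CPM + 0.5) scale. It passed the 95% critical value in 26 of 300 tests over the genes and lists described, where chance flags about 1 test in 20 and genes of 1 list are not independent.

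ND female A1092 stood above the other ND females in microglial and antigen-presenting genes: Trem2 (39.6 CPM, next 20.9, ratio 0.761), Tyrobp (44.4 and 25.8 CPM, 0.670), C1qa (0.660), C3ar1 (0.722), B2m (0.708) and H2-D1 (0.674), and in the means of the homeostatic microglia markers (0.700) and the inhibitory immune receptors (0.706). HFD female F1094 stood below the other HFD females in Trim30a (4.20 CPM, next 7.30, ratio 0.853), Gbp2 (0.759), Irf9 (0.767), Siglech (0.750) and H2-K1 (0.773). HFD female F1063 was the lowest of her diet for the means of interneuron lineage factors (0.738), Zic factors and septal markers (0.774) and striatal markers (0.765) and for Map1s (0.715), and the highest for choroid plexus markers (0.787) and for S100a9 (35.7 CPM, next 0.711, ratio 0.848).

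Single genes passed in other mice. In HFD females these were Doc2g in F1076 (1.72 CPM, next 3.33, ratio 0.786) and Irs1 in F1100 (18.4 and 20.5 CPM, 0.852), each the lowest. In ND females they were Atp6v0c in F1139 (0.774), Kcng1 in F1074 (0.655) and Vgf in F1073 (0.652), each the highest, and Ccl9 in F1073 (0.691) and Ly6c1 in F1139 (0.707), each the lowest.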

How the results depend on the processing

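The number of genes called higher in HFD females (579) lay between 381 (without HFD female F1252) and 779 (without ND female A1092) when 1 female was left out, and the number called lower (664) between 466 (without ND female F1104) and 861 (without A1092). Genes at an adjusted p of 0.05 numbered 0 with edgeR's quasi-likelihood test (1243 at an unadjusted p under 0.05) and with limma-voom, but 48 with DESeq2 (16 higher and 32 lower) and 41 with edgeR's likelihood ratio test, and 0 to 2 when 1 female was left out, the 2 being Sp8 and Scgn without ND female F1102. Genes without overlap numbered 49 higher and 64 lower, and with 1 female fewer, which by construction makes separation easier, 62 to 148 higher and 68 to 156 lower. The count for the difference between the sexes was 0 in every setting run. Of the genes with values in the text, S100a9 had a log2 fold change of -0.83 without HFD female F1063 and of up to 3.57 without F1252, and Pknox1, close to 0 in females (0.0077), ranged from -0.017 (without F1252) to 0.031 (without F1063) and was also negative without F1100 (-0.01) and F1074 (-0.0076). Calls were lost by Snhg14 with DESeq2, the likelihood ratio test and limma-voom, by Irs4 and S100a9 with limma-voom, by Clec7a with DESeq2, library totals and the fit of all 19 libraries, and by Uqcrq in that last fit, and the cause was not tested. With these sample numbers and counts of a few reads per mouse, differences in genes near 1 CPM are the least certain. Mouse identifiers are not shared between diets, and no paired analysis was possible because no mouse or replicate number links the groups.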

Other observations

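Ccl9, a chemokine of myeloid cells, was also separated between the diets, at 2.04, 2.72, 1.82, 1.74 and 2.81 CPM in HFD females, against 0.781 to 1.66 CPM (median 1.45) in ND females (log2 fold change 0.69, SE 0.20, adjusted p = 0.405), with ND female F1073 far below the other mice of her diet.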
